A study of Mus musculus with 2 samples.

Results

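Cytotoxic T cells of the mouse colon were chosen by their transcript counts in 2 single-cell libraries, 1 from wild type (WT) mice and 1 from mice transgenic for a model of Alzheimer's disease (AD). Barcodes with 200 or more genes and no more than 25% of UMIs (unique molecular identifiers, each standing for 1 captured transcript) from mitochondrial genes were kept. A kept cell was a member when it held at least 2 UMIs over the CD3 genes Cd3d, Cd3e and Cd3g and at least 2 over Cd8a, Cd8b1, Gzma, Gzmb and Ccl5. Members also held no UMI of the helper and regulatory genes Cd4 and Foxp3, no UMI of the B cell genes Cd79a and Ms4a1, and under 0.3% of their UMIs over the epithelial genes Epcam, Krt8, Krt18, Krt19, Cldn7 and Lgals4. The rule found 182 members among 6241 kept cells, 112 of 1550 in the WT library and 70 of 4691 in the AD library.

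The labels give tissue and genotype for each library, and the series text names the model APP/PS1-21. As background, that line carries human transgenes, the amyloid precursor protein among them, under a neuronal Thy1 promoter. Tissue was cut up and treated with trypsin plus DNase I, and no sort for T cells is named. Age, sex and the number of animals behind each library are not given in the sources used here. Since each genotype has 1 library, the spread between animals is unknown, no test between genotypes was possible, and genotype and library cannot be told apart. Every range in parentheses is an exact 95% interval (Clopper-Pearson for shares, Poisson for sums, conditional on the total for ratios) that covers counting error only.

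Cytotoxic T cells carry the CD3 complex, which passes the signal of the T cell receptor, and usually the coreceptor CD8, which binds MHC class I. They kill by releasing granzymes and perforin from granules and call in other cells with the chemokines CCL3, CCL4 and CCL5. In the gut, many such cells lie between epithelial cells. Those that carry CD8 as a pair of alpha chains often have receptors of the natural killer (NK) type and the signalling adaptors FCER1G and TYROBP, whereas CD8 alpha-beta cells include naive and recirculating T cells with LEF1.

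The gated T cells took a smaller share of the AD library than of the WT library by either denominator. They were 7.23% of kept WT cells (5.99 to 8.63) and 1.49% of kept AD cells (1.17 to 1.88), a ratio of AD over WT of 0.207 (0.151 to 0.281). Among CD3 T cells they were 112 of 168 in WT (66.7%, 59.0 to 73.7) and 70 of 212 in AD (33.0%, 26.7 to 39.8), a ratio of 0.495 (0.362 to 0.674). Among CD3 T cells the others took the rest. T cells with a Cd4 or Foxp3 UMI were 8 of 168 in WT and 44 of 212 in AD (4.76% and 20.8%), and CD3 cells without those UMIs but under the cytotoxic minimum were 48 and 98 (28.6% and 46.2%). Of kept cells the latter were 3.10% in WT and 2.09% in AD, a ratio of 0.675 (0.473 to 0.974), and the former 0.516% and 0.938%, a ratio of 1.82 (0.846 to 4.47).

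The share of all kept cells moved with the mitochondrial limit, which left 1550 of 4050 WT barcodes and 4691 of 6643 AD barcodes. With no such limit, a setting added after seeing the data, there were 121 members among 4050 WT cells and 73 among 6643 AD cells, and the ratio was 0.368. At a limit of 50% the ratio was 0.311. The ratio among CD3 T cells was 0.495 without the limit and 0.497 at 50%. The ratio among T cells thus stayed near 0.495 at these limits, and the ratio among kept cells did not stay near 0.207.

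**Figure D1:**
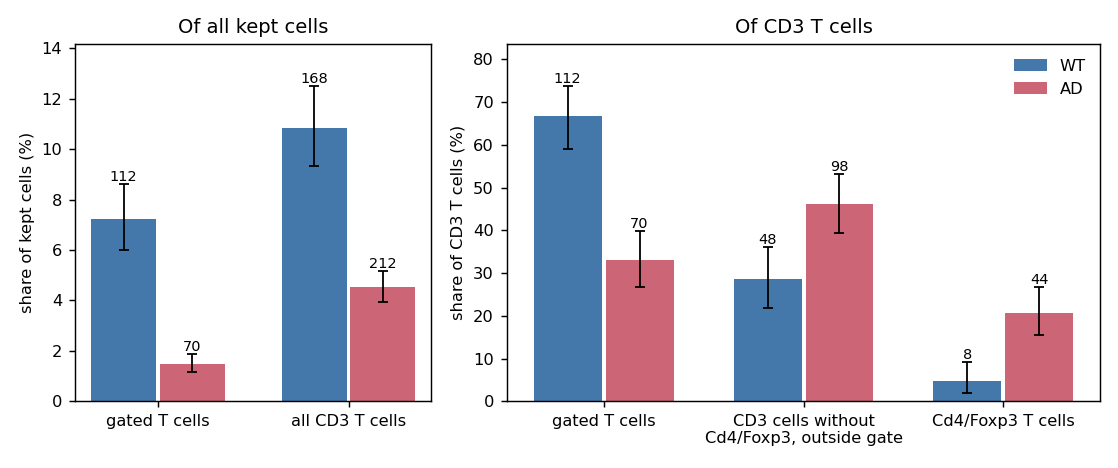
Shares of gated T cells and of other T cell gates in the WT (blue) and AD (red) library, as percent of kept cells (left) and percent of CD3 T cells (right). Bars are shares, whiskers exact 95% Clopper-Pearson intervals and numbers above them cell counts; gated T cells were 112 and 70, and the WT interval lies above the AD interval in both panels.

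Members of the 2 libraries were alike in mitochondrial share and differed in depth. Median mitochondrial shares of members were 7.79% in WT and 7.80% in AD. The median member held 3738.5 UMIs in WT (lowest 699, highest 13271) and 2670.5 in AD (lowest 1100, highest 8314). Summed over members this gave 430411 and 210460 UMIs, the totals behind every value in CPM (UMIs of a gene scaled to a common total) below. Of the barcodes, 7 were shared by the libraries, none of them a member's.

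The markers of the label, Cd3e, Cd8a, Ccl5 and Gzmb, are all counted by the rule, so finding them in members is no test of the label. Only part of the gated cells carried cytotoxic genes of the rule other than Ccl5. Cd3e, a CD3 chain, was found in 91 of 112 WT and 48 of 70 AD members. Ccl5, a chemokine that NK and other T cells also make, was found in 111 WT members (99.1%) and 62 AD members (88.6%). Cd8a was found in 45 WT members (40.2%) and 18 AD members (25.7%), and Gzmb in 22 (19.6%) and 6 (8.57%). Ccl5 alone met the cytotoxic minimum in 109 WT and 60 AD members, and 59 and 43 of those held no UMI of Cd8a, Cd8b1, Gzma or Gzmb. Of genes that the rule did not use, the pore-forming gene Prf1 had 5 UMIs in WT and 6 in AD members. The granule gene Nkg7 was found in 83 WT and 52 AD members. The cells are therefore called gated T cells here. T cell receptor chain genes are not among the genes of the files, so alpha-beta and gamma-delta T cells were not told apart, and Ms4a1 had no UMI in any barcode, so the B cell limit rested on Cd79a.

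Near the thresholds, 9 WT and 12 AD members held exactly 2 cytotoxic UMIs, and 10 WT and 8 AD cells stayed outside with 1. The median cytotoxic sum was 14 in WT (lowest 2, highest 308) and 8 in AD (lowest 2, highest 45). A CD3 sum of exactly 2 was held by 13 and 12 members, and 10 WT and 24 AD cells that met all else stayed outside with 1.

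Among the genes of the gate, Gzma had the ratio farthest from 1, and both granzyme genes lay in few cells. Gzma encodes granzyme A, a serine protease of cytotoxic granules. It had 495 UMIs in 16 of 112 WT members and 12 UMIs in 2 of 70 AD members, with a median of 0 and a highest value of 70 UMIs in a WT cell and 10 in an AD cell. At 1150 and 57.0 CPM, the log2 ratio of AD over WT was -4.28 (-5.30 to -3.52). Within WT, 12 cells held 5 or more Gzma UMIs and the 5 highest held 56.2% of the total. Gzmb, which encodes the caspase-cleaving granzyme B, had 365 UMIs in 22 WT members and 41 UMIs in 6 AD members, a log2 ratio of -2.11 (-2.62 to -1.65). A single AD cell held 31 of the 41 Gzmb UMIs. That cell had no Ccl5 or Cd8a UMI, and it held 11 of the 12 UMIs of the cytokine Il10 found in AD members. Without the highest cell of each library Gzma had 425 and 2 UMIs and Gzmb 286 and 10, a log2 ratio of -3.66 for Gzmb. As a mean of CPM per cell, the log2 ratio of Gzma was -2.83. Since the rule counts Gzma and Gzmb toward membership, these levels describe the gated cells and carry no test.

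The chemokine genes Ccl3 and Ccl4, which the rule did not use, stood in the same direction. Ccl3 had 278 UMIs in 23 WT members, of which 1 cell held 92, and 19 UMIs in 8 AD members, none with more than 4. The levels were 646 and 90.3 CPM, a log2 ratio of -2.80 (-3.59 to -2.17). Ccl4 had 315 UMIs in 25 WT and 27 in 8 AD members, a log2 ratio of -2.49 (-3.14 to -1.94). Fibroblast-gated and epithelium-gated cells, which should lack Ccl4, held 14 and 16 UMIs of it, with a log2 ratio of -1.04, and the 14 WT UMIs lay in 2 cells. Ccl5 itself had 3107 and 826 UMIs, with a median of 13 UMIs per WT cell (highest 224) and 7 per AD cell (highest 43), and a log2 ratio of -0.88 (-0.99 to -0.77). Among members with a CD8 UMI alone the log2 ratio of Ccl5 was -2.05. The per-cell ranges of the libraries overlap for each of these genes, and the highest WT cells stand above every AD cell.

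**Figure D2:**
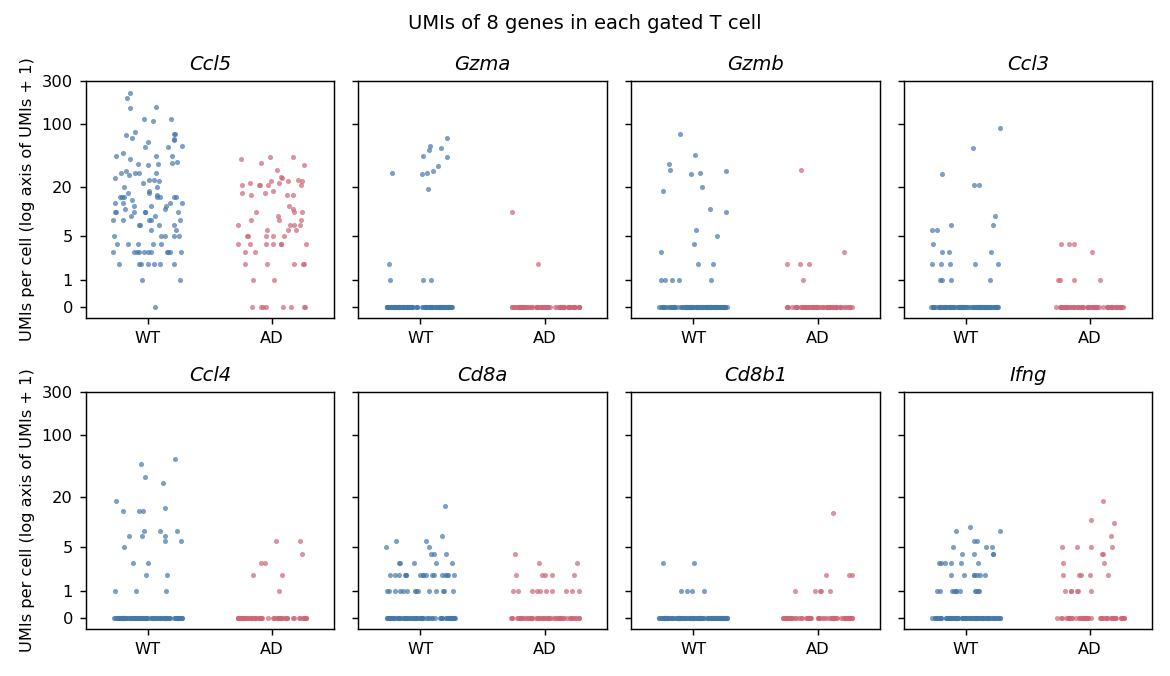
UMIs per gated T cell on a log axis of UMIs plus 1, for Ccl5, Gzma, Gzmb, Ccl3, Ccl4, Cd8a, Cd8b1 and Ifng, with 112 WT points (blue) and 70 AD points (red), spread sideways so that they can be seen. Gzma is at 0 in most cells of both libraries and reaches 70 UMIs in a WT cell against 10 in an AD cell, while Ifng reaches 9 UMIs in a WT cell and 18 in an AD cell.

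As Gzma, Gzmb and Ccl3 are the effector genes with the ratios described above and were in the promoter table, the 250 bases before their start sites are shown, from RefSeq on build GRCm38.p6, each 5′ to 3′ on the gene's strand. Of 7 genes looked for, 4 were in the table, Cd8a among them. The windows are chr13:113100982-113101231 for Gzma, chr14:56262335-56262584 for Gzmb and chr11:83649379-83649628 for Ccl3. All are on the minus strand and upstream of the start given in RefSeq. Bases after that start were found in a GENCODE transcript of the same gene for Gzma, Ccl3 and Cd8a, but not for Gzmb. The start used for Gzmb was thus not borne out by those transcripts. Capitals mark matches, on either strand, to TGTGGT (a core of RUNX sites), TCACAC (a T-box core) or TGANTCA (an AP-1 site).
Gzma: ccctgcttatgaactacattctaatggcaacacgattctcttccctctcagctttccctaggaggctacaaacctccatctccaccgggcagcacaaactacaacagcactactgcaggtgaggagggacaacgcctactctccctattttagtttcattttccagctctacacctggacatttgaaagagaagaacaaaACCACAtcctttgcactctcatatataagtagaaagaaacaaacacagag
Gzmb: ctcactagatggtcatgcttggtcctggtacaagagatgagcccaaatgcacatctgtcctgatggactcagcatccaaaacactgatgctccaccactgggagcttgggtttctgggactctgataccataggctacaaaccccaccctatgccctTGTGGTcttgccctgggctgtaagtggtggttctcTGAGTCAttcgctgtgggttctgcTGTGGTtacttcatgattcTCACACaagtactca
Ccl3: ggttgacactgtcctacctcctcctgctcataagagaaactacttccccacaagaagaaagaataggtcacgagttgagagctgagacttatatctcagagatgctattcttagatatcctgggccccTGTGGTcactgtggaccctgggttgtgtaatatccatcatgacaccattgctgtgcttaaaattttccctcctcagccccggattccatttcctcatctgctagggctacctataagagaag
Each of the 3 windows held a TGTGGT match, and the window of Cd8a, not printed, held no match to any of the motifs. Of the printed windows, Gzmb held 2 TGTGGT matches and alone held TCACAC and TGAGTCA, the latter a match to the AP-1 letters. Over 32851 promoter windows of the same length, TGTGGT was found in 14.0%, TCACAC in 12.3%, TGANTCA in 6.75% and all of them in 0.170%. The searched motifs do not overlap in letters, and a match is a description of the sequence, not a measured site.

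Cells with 5 or more UMIs over Gzma and Gzmb, a limit set after seeing the data, were 15 of 112 in WT (13.4%, 7.69 to 21.1) and 2 of 70 in AD (2.86%, 0.348 to 9.94). Of the 15 WT cells, 12 had a Cd8a UMI, none had a Cd8b1 UMI and 13 had Ccl3 or Ccl4. Neither of the 2 AD cells had a CD8 UMI. These 15 WT cells held 225 of the 278 Ccl3 UMIs (in 10 of them), 215 of the 315 Ccl4 UMIs and 1569 of the 3107 Ccl5 UMIs of WT members. They also held 73 UMIs of Ccr9, the receptor for a chemokine of gut epithelium, against 9 in the other 97 WT members, and 32 UMIs of the NK-type receptor Klre1 against 15. As these cells were picked on their values, the contrast is a description.

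Left without the cells rich in granzymes, an alternative added after seeing the data, the ratios of chemokines came closer to 1 and those of Ccr9 and Klre1 moved away from it. The log2 ratio went from -0.88 to -0.16 for Ccl5, from -2.80 to -0.69 for Ccl3, from -2.49 to -1.21 for Ccl4 and from -0.95 to -0.40 for Cd8a. For Ccr9 it went from -0.27 to 2.58 and for Klre1 from 0.34 to 1.70. What remained was 9 Ccr9 UMIs in 4 WT cells and 33 in 6 AD cells, and 15 and 29 UMIs of Klre1. The cells left out were picked on granzymes and held a large part of the WT UMIs of these genes. The shifts thus follow from leaving those cells out and are no separate support.

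The gene list for granules and killing held 20 genes, of which 11 reached 30 UMIs over both libraries, the minimum for a comparison. Gzma and Gzmb, which the rule used, are described above. Of the remaining 9, 1 was at least 2-fold lower in AD (Serpinb6b) and 0 were 2-fold higher, with a median log2 ratio of -0.17. The same rule over all 3180 genes compared called 123 genes (3.87%) at least 2-fold lower and 115 (3.62%) at least 2-fold higher, with a median of -0.01. Serpinb6b, a serpin that inhibits granule proteases, had 50 UMIs in 23 WT and 7 in 5 AD members, a log2 ratio of -1.72 (-3.19 to -0.66). It stood at 75 and 47 UMIs and a log2 ratio of -1.90 in fibroblast-gated and epithelium-gated cells. A lower value in AD was thus also found outside T cells, but not in every gate. CD3 cells without Cd4 or Foxp3 UMIs and under the cytotoxic minimum held 6 and 14 UMIs of Serpinb6b, a log2 ratio of 0.41. NK-gated cells, defined below, held 17 and 27, a log2 ratio of 0.55. The counting intervals of both these ratios include 0. Nkg7, a granule protein needed for release, was at 706 and 717 CPM (304 and 151 UMIs, log2 ratio 0.03, -0.27 to 0.31). The cystatin Cst7 stood at 0.83 (0.09 to 1.55), and Srgn, the granule proteoglycan serglycin, at -0.22 (-0.41 to -0.03).

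Of 6 cytokine and chemokine genes with 30 UMIs, leaving out Ccl5, 3 (Ccl3, Ccl4 and Tnf) were at least 2-fold lower in AD and 0 higher, against 3.87% and 3.62% of all genes. Tnf, an inflammatory cytokine, had 69 UMIs in 28 WT members and 9 UMIs in 7 AD members, a log2 ratio of -1.84 (-3.09 to -0.90). Ifng, which encodes interferon gamma, stood the other way at 111 and 96 UMIs in 36 and 23 members. Its levels were 258 and 456 CPM, and the log2 ratio of 0.82 (0.41 to 1.23) was short of 2-fold. The share of members with an Ifng UMI was 32.1% in WT and 32.9% in AD. The genes of this list thus did not all stand in 1 direction.

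The 2 CD8 chains differed in opposite directions, on few counts. Cd8a had 120 UMIs in 45 WT members and 30 in 18 AD members, a log2 ratio of -0.95 (-1.60 to -0.38). Cd8b1, the beta chain, had 10 UMIs in 6 WT members and 24 in 9 AD members, a log2 ratio of 2.25 (1.18 to 3.52), and 1 AD cell held 13 of the 24. Without the highest cell of each library the log2 ratio of Cd8b1 was 1.73. Cells with Cd8a and no Cd8b1 UMI were 39 of 112 in WT and 13 of 70 in AD (34.8% and 18.6%), cells with Cd8b1 were 6 and 9 (5.36% and 12.9%), and cells with neither were 67 and 48 (59.8% and 68.6%). The intervals of the ratios of these shares include 1 (0.261 to 1.02 for Cd8a without Cd8b1, 0.763 to 8.19 for Cd8b1). Cells with Cd8b1 and no Cd8a UMI were 0 of 112 in WT and 4 of 70 in AD, with a lower bound of 1.06. Such intervals run wide for large shares and the counts are few, so no verdict on the split is drawn.

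Within both libraries, cells with Cd8a alone and cells with Cd8b1 carried different genes. Fcer1g, the signalling adaptor, had 119 UMIs in 30 of 39 WT cells and 19 in 7 of 13 AD cells with Cd8a alone, against 0 in 6 WT and 3 in 2 of 9 AD cells with Cd8b1. Klrd1, the CD94 receptor chain, had 118 and 21 UMIs in the cells with Cd8a alone against 0 and 6 in those with Cd8b1. The residency regulator Rgs1 stood at 1866 and 1192 CPM in cells with Cd8a alone and 683 and 78.4 CPM in cells with Cd8b1. In the other direction, S100a4, a calcium-binding protein of memory T cells, had no UMI in cells with Cd8a alone, and in cells with Cd8b1 it had 10 UMIs in 3 of 6 WT cells and 24 in 2 of 9 AD cells. Cd28, a costimulatory receptor, stood at 66.4 and 194 CPM against 362 and 680 CPM (in 2 of 6 and 6 of 9 cells with Cd8b1), and Klf2, a regulator of T cell exit into blood, at 205 and 249 against 724 and 889 CPM (in 3 and 5 cells with Cd8b1). The groups were defined by the CD8 chains and have few cells with Cd8b1, and a chain at 1 or 2 UMIs per cell can be missed.

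Genes of both kinds split only part of the members, in groups defined without CD8 and chosen after their values were seen. Members with a UMI of Fcer1g, Tyrobp or Kit and none of Lef1, Cd6, Cd28 or S100a4 were 55 of 112 in WT (49.1%) and 24 of 70 in AD (34.3%). Members with the second set alone were 12 (10.7%) and 18 (25.7%). Of the members with Cd8b1, 4 of 6 in WT and 7 of 9 in AD fell in the second set alone. Fcer1g, Cd28 and S100a4 are also the genes seen above to differ by CD8 chain, so this count is no separate support. Members with both were 31 and 19, and members with neither 14 and 9.

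Most NK-type receptor genes were within 2-fold. Of 11 genes with 30 UMIs, 2 were at least 2-fold higher in AD and 0 lower (3.62% and 3.87% of all genes), with a median log2 ratio of 0.06 beside -0.01 for all genes. The adaptor gene Fcer1g was at 627 and 432 CPM (270 and 91 UMIs in 72 and 36 members, log2 ratio -0.53, -0.90 to -0.19). Klrd1 was at 553 and 556 CPM (log2 ratio 0.01, -0.32 to 0.33) and the receptor Cd160 at 237 and 266 CPM (0.17, -0.33 to 0.65). The higher genes were the Ly49 receptors Klra1, with 14 and 19 UMIs (1.46, 0.40 to 2.58), and Klra7, with 32 and 35 (1.16, 0.43 to 1.90). Ly49 genes are near-identical copies of each other, so reads may have been split between them.

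Genes of naive and circulating memory T cells included Lef1, which was higher in AD members. Of 9 genes with 30 UMIs, 3 were at least 2-fold higher in AD and 0 lower (background 3.62% and 3.87%), with a median log2 ratio of 0.77. Lef1, a transcription factor of naive T cells, had 59 UMIs in 27 WT members and 76 in 21 AD members, a log2 ratio of 1.39 (0.89 to 1.91), and its highest cells held 12 and 13 UMIs. Ly6c2, a surface protein of memory CD8 cells, had 18 and 27 UMIs (1.60, 0.70 to 2.56), but fibroblast-gated and epithelium-gated cells held 4 and 318 UMIs of it, a log2 ratio of 4.92. Klf3 stood at 0.85 (0.22 to 1.46). Tcf7, which encodes TCF1, stood at 0.21 (-0.36 to 0.74), and Foxo1 at -0.51 (-0.87 to -0.18), so the genes of the list did not all stand in 1 direction.

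**Figure D3:**
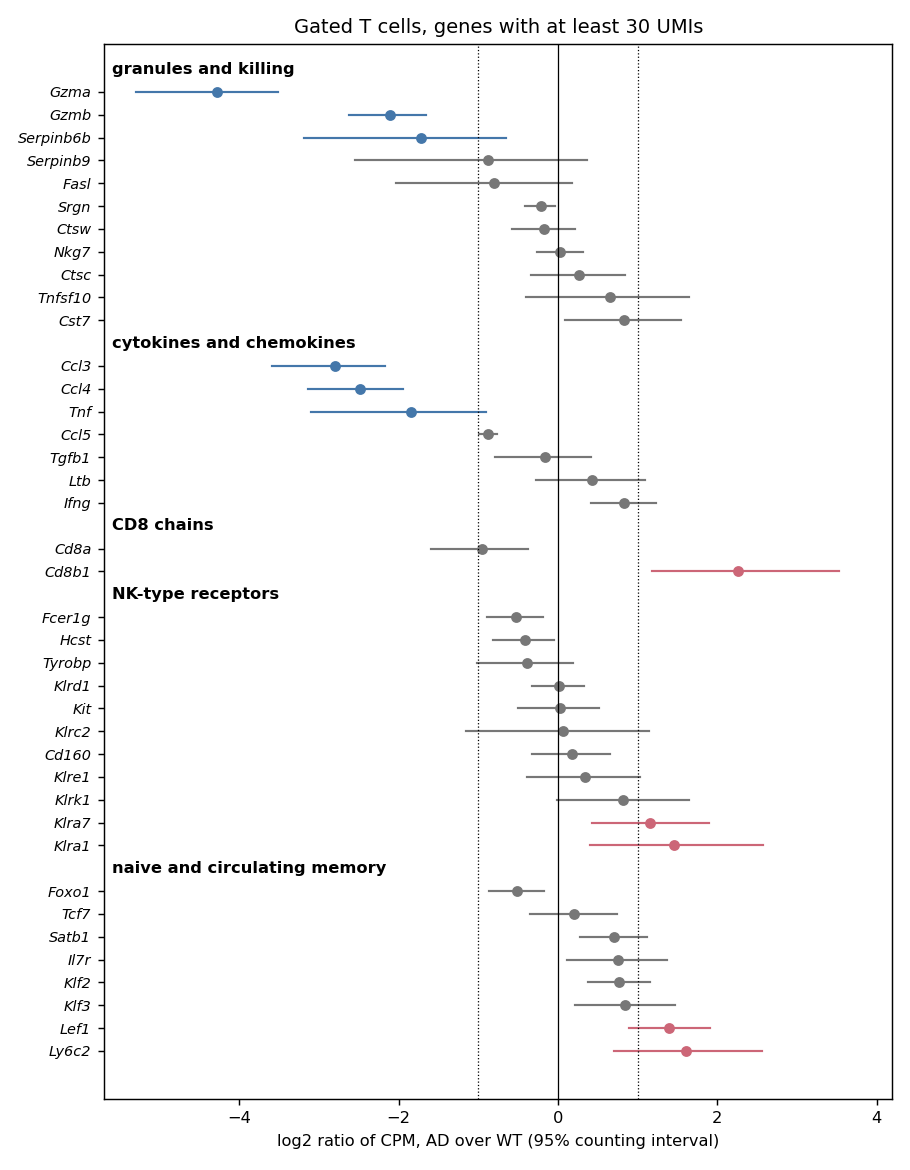
Log2 ratio of CPM, AD over WT, in gated T cells for genes with at least 30 UMIs from the lists of granules and killing, cytokines and chemokines, CD8 chains, NK-type receptors, and naive and circulating memory T cells (1 gene of the last list not shown); points are ratios, lines exact 95% counting intervals, dotted lines 2-fold. Gzma (-4.28), Gzmb, Ccl3, Ccl4, Tnf and Serpinb6b lie below the lower line (blue), and Cd8b1, Ly6c2, Lef1, Klra1 and Klra7 above the upper one (red).

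Among 17 transcription factor genes, 1 was at least 2-fold lower in AD and 1 higher, beside 3.87% and 3.62% of all genes. Tbx21, which encodes T-bet, a driver of interferon gamma and granzyme genes, had 127 UMIs in 45 WT members and 30 in 15 AD members, a log2 ratio of -1.03 (-1.68 to -0.47). Bcl11b, a T lineage factor, had 59 and 64 UMIs (1.15, 0.62 to 1.68), and its fibroblast-gated and epithelium-gated values were 3 and 31. Ikzf2, which encodes Helios, was at 1248 and 1174 CPM (-0.09, -0.31 to 0.13), and Runx3, a factor of CD8 T cells, at 300 and 323 CPM (0.11, -0.34 to 0.54). Tox, a factor of persistently stimulated T cells, was at 690 and 703 CPM.

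Of 15 tissue residence and homing genes, 2 were at least 2-fold higher in AD and 0 lower (3.62% and 3.87% of all genes), with a median of -0.17. The higher genes were Cd44, an adhesion receptor of memory cells, with 58 and 72 UMIs (1.34, 0.83 to 1.87), and the integrin gene Itga4, with 37 and 39 (1.11, 0.42 to 1.80). Cd44 also stood at a log2 ratio of 1.00 in fibroblast-gated and epithelium-gated cells. Itgae, which encodes CD103, the integrin that holds lymphocytes at epithelium, had 78 UMIs in 41 WT members and 22 in 12 AD members (-0.77, -1.55 to -0.10). Rgs1 stood at -0.66 (-0.90 to -0.43), beside -4.41 in fibroblast-gated and epithelium-gated cells. The integrin gene Itgal stood at 0.91 (0.34 to 1.46).

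T cell receptor signalling genes were mostly near even. Of 16 genes with 30 UMIs, leaving out the CD3 genes, 1 was at least 2-fold higher in AD and 0 lower, beside 3.62% and 3.87% of all genes. The called gene was Cd6, a surface regulator of T cell activation, with 8 and 22 UMIs (2.44, 1.27 to 3.87), 10 of the 22 in 1 cell. The CD3 genes, which the rule used, stood at 0.27 for Cd3d, -0.39 for Cd3e and -0.56 for Cd3g.

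Of 12 heat shock genes, which tissue digestion is known to induce, 1 was 2-fold lower in AD and 0 higher, beside 3.87% and 3.62% of all genes, and the median log2 ratio was -0.42. The gene past 2-fold was Hsph1, a chaperone, with 317 and 77 UMIs (-1.39 to -0.65). Hsp90aa1, a chaperone, stood at 4070 and 2642 CPM (-0.62, -0.76 to -0.49). In fibroblast-gated and epithelium-gated cells Hsph1 stood at -0.46 and Hsp90aa1 at -0.19. Of 22 immediate early genes 1 was 2-fold lower (Zfp36l2, 88 and 15 UMIs, -1.48) and 1 higher (Atf3, 35 and 46 UMIs, 1.42), with a median of -0.16. Nr4a2, a receptor-induced nuclear receptor, stood at -0.56 (-0.71 to -0.41). The part of dissociation in these values was not tested.

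In the remaining lists few genes passed 2-fold. The shares over all genes were 3.62% higher and 3.87% lower. Of 10 cytokine receptor genes 2 were higher (Il6st at 1.25 and Il18r1 at 1.22) and 0 lower. Of 7 cell division genes 2 were higher, Stmn1 with 14 and 22 UMIs and Top2a with 14 and 16, of which 10 lay in 1 AD cell. None of 10 MHC class I genes, 6 interferon-stimulated genes, 10 glycolysis genes, 14 actin genes or 5 amyloid processing genes passed 2-fold either way. App had 4 and 2 UMIs in WT and AD members, and the files do not separate a human transgene from the mouse genes.

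The genes with the widest differences outside the gate and the marker lists were chosen by size, leaving out those that moved alike in fibroblast-gated and epithelium-gated cells. Higher in AD were Lyst, a regulator of lysosome and granule size, with 7 UMIs in 7 WT members and 31 in 15 AD members (log2 ratio 3.10, 1.97 to 4.61), and Adamts6, a protease, with 12 and 31 UMIs (2.37, 1.40 to 3.50). Galnt6, Fgf13, Kcnn4, Parp16, Zswim4, Gsr, Mast4 and Slc10a1 followed between 2.13 and 1.72, and Cd6, given above, was also among the 12. Kcnn4 encodes the calcium-activated potassium channel of activated T cells and had 13 and 26 UMIs (2.01, 1.02 to 3.12). Lower in AD were Ica1l, with 47 and 1 UMIs, of which 33 lay in 1 WT cell (-3.95), and Gcnt2, a glycan branching enzyme, with 35 and 2 UMIs in 18 and 2 members (-2.80, -6.20 to -1.14). Rrad had 40 and 3 UMIs (-2.50), Cstb, a cystatin that inhibits cathepsins, had 61 and 7 in 35 and 5 members (-3.47 to -0.96), and Arhgap39 had 64 and 7 (-2.07). Supt20, Wrn, Immp1l, Zfp654 and Cenpc1 lay between -2.14 and -1.78, and Ccl3 and Tnf completed the 12. Most of these genes rest on fewer than 50 UMIs.

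**Figure D4:**
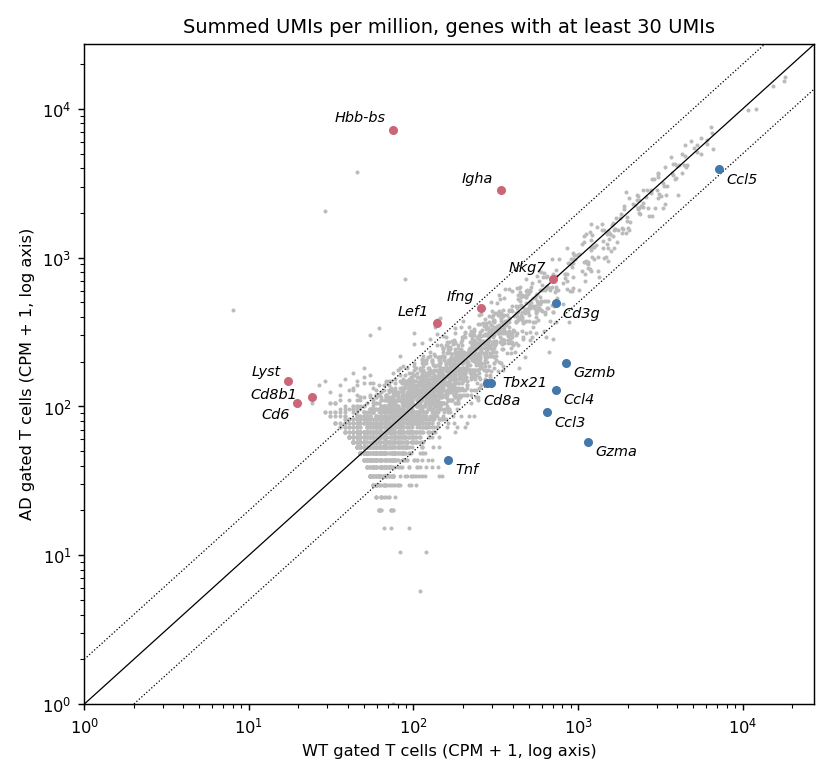
Level of each of 3180 genes in WT (horizontal) and AD (vertical) gated T cells, in CPM plus 1 on log axes; the solid line marks equal levels and dotted lines 2-fold, and labelled genes are coloured by the direction of their ratio (red above 1, blue below). Gzma, Gzmb, Ccl3 and Ccl4 lie below the lower line, Nkg7 on the diagonal, and Igha and Hbb-bs, transcripts of plasma cells and red cells, far above the upper line.

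Beside the T cell genes, transcripts of other cells differed between the members of the 2 libraries. Igha, the heavy chain gene of IgA made by plasma cells, was found in 52 of 112 WT members (145 UMIs) and in 70 of 70 AD members (601 UMIs). In fibroblast-gated and epithelium-gated cells it had 234 and 37152 UMIs, a log2 ratio of 6.08, so these transcripts were spread over the AD library. Jchain had 38 and 152 UMIs in members, and the goblet cell genes Mptx1 and Muc2 had 26 and 71, and 23 and 63. Haemoglobin genes had 66 UMIs in WT and 2845 in AD members, and 1 AD cell held 2832 of these, 34.1% of its UMIs. Without it, 122 genes were 2-fold higher and 120 lower. The summed epithelial markers ranged from 0 to 0.371% of a WT member's UMIs and 0 to 0.630% of an AD member's. Myeloid markers had 5 and 9 UMIs, fibroblast markers 9 and 16, endothelial markers 10 and 14, glial markers 2 and 0, and mast cell and granulocyte markers 1 and 0. Of the plasma cell list, Igkc, Iglc1 and Iglc3 had no UMI in any barcode. The part of free RNA in the genes called was not tested. Gzma and Gzmb had 1 and 0 UMIs in the fibroblast-gated and epithelium-gated cells of both libraries together.

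To set detection side by side at 1 depth, each member was thinned to 1000 UMIs, which left out 2 WT and no AD cells. Cells had been gated at their full depth, and Gzma and Gzmb are genes of the gate, so their shares are a description. Gzma was then found in 16 of 110 WT and 2 of 70 AD members (14.5% and 2.86%), beside 14.3% and 2.86% unthinned, and Gzmb in 16 and 2, beside 22 and 6 unthinned. Over 20 draws Gzma ranged from 12 to 16 and from 1 to 2 cells, and Gzmb from 14 to 19 and from 1 to 6. Of fibroblast-gated and epithelium-gated cells none had a UMI of either gene after thinning. Ifng was found in 18 and 15 members (16.4% and 21.4%), Klrd1 in 42 and 28, and Nkg7 in 45 and 32, with draws of 40 to 51 and 27 to 35. Lef1 was found in 8 of 110 WT and 14 of 70 AD members. Its draws ran from 7 to 16 and from 10 to 16 cells, counts over unequal numbers of members.

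NK-gated cells, with no CD3 UMI and at least 2 UMIs over Ncr1, Klrb1c, Klre1, Klrd1 and Nkg7, were 23 in WT and 39 in AD. Tyrobp was found in 18 and 29 of them, but Cd28 was found in 11 and 15. Those of AD also held 78 UMIs of the interleukin 17 gene Il17a. The gate may thus hold other lymphocytes beside NK cells, and its make-up was not tested. In NK-gated cells Ccl4 stood at 1617 and 1823 CPM (log2 ratio 0.17, -0.10 to 0.45) and Gzmb at 114 and 296 CPM (1.34, 0.46 to 2.37). Ifng stood there at 457 and 1200 CPM (1.38, 0.94 to 1.86) and Ccl3 at 972 and 524 CPM (-0.89, -1.34 to -0.45). For Ccl4 the counting intervals of NK-gated cells and of gated T cells (-3.14 to -1.94) do not overlap, in 1 library each. These intervals take UMIs as independent, but the Ccl4 UMIs lay in 7 of 23 WT and 16 of 39 AD NK-gated cells. In gated T cells they lay in 25 of 112 WT and 8 of 70 AD cells, so the contrast is a description. The WT value of Gzmb rests on 14 UMIs in 3 NK-gated cells. Among T cells with a Cd4 or Foxp3 UMI, 1 AD cell held 26 Gzma UMIs and 3 WT cells held 45 Gzmb UMIs. With the cytotoxic criterion dropped, the CD3 cells without Cd4 and Foxp3 (160 in WT, 168 in AD) gave log2 ratios of -4.99 for Gzma, -3.31 for Ccl3, -1.58 for Ccl5 and -1.67 for Cd8a.

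Within each library the gated T cells stood apart from other CD3 cells without Cd4 and Foxp3 UMIs, in genes that the rule did not use. Of these cells outside the gate, 38 of 48 in WT and 90 of 98 in AD held no UMI of the rule's cytotoxic genes. Most thus lay away from the threshold. Il23r, Il17a and Il1r1, genes of interleukin 17 producing cells, were lower in members in both libraries, and Il17a had no UMI in members against 32 UMIs outside in WT and 108 in AD. Rora stood at 249 and 257 CPM in members against 1118 and 1505 outside, and S100a4 at 53.4 and 162 CPM against 848 and 883. Klrd1 stood at 553 and 556 CPM against 230 and 58.6, Fcer1g at 627 and 432 against 164 and 82.1, and Ifng at 258 and 456 against 26.3 and 43.0. Compared with NK-gated cells, members held more Ikzf2 (2.15 and 2.39 on the log2 scale in WT and AD) and less Tyrobp (-2.12 and -2.11). These gates share no cells with the members, and each value comes from 1 library.

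**Figure D5:**
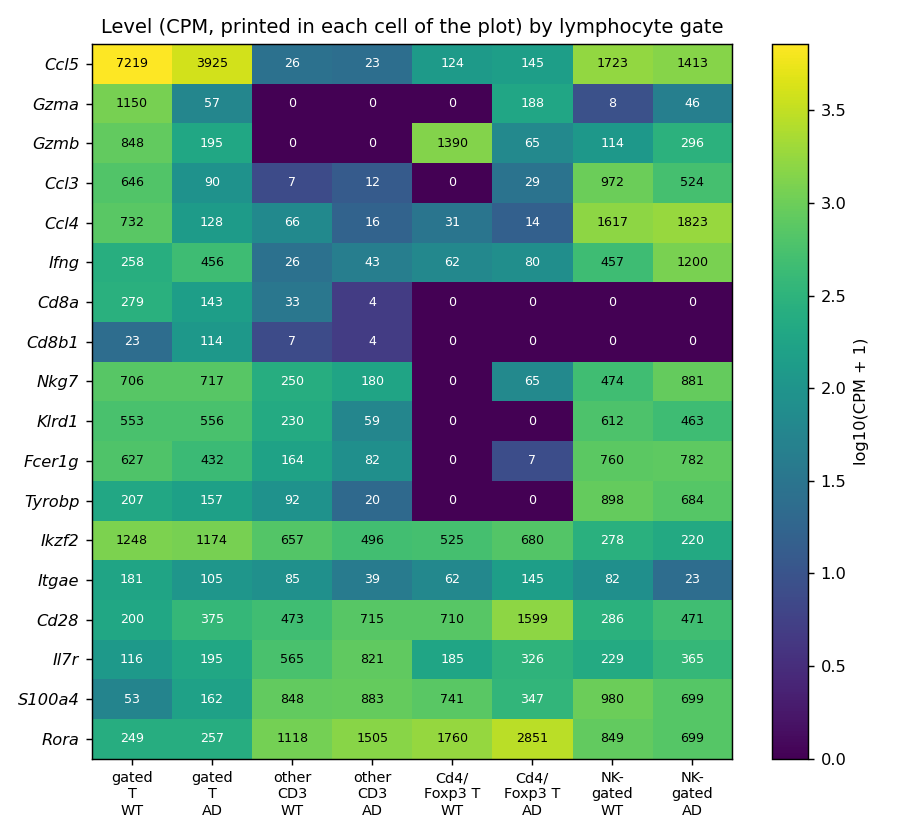
Levels of 18 genes in gated T cells, in other CD3 cells without Cd4 and Foxp3 UMIs, in T cells with a Cd4 or Foxp3 UMI, and in NK-gated cells of each library; colour is log10 of CPM plus 1 and the CPM is printed in each field. Gated T cells are at 1150 CPM of Gzma in WT and 57.0 in AD and at 646 and 90.3 CPM of Ccl3, while NK-gated cells are at 1617 and 1823 CPM of Ccl4.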

How the data were processed

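Single cells of mouse colon were profiled by 10x sequencing, 1 library per genotype. The deposited values are UMI counts per gene and barcode, with no normalization. The submitters' processing notes name Cell Ranger 3.0.1, STAR, Seurat 3.0.2 and build mm10, with no role or parameters. The libraries held 4146 (WT) and 6675 (AD) barcodes with 26898149 and 38731915 UMIs, and the median mitochondrial share over all barcodes was 33.4% in WT and 12.9% in AD.

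Cells were gated on counts, not clustered, and no doublet caller was run. Fibroblast-gated cells held at least 10 UMIs of fibroblast markers and epithelium-gated cells at least 2% epithelial UMIs, both without CD3. UMIs were summed over gated cells per library. Log2 ratios of CPM used 0.5 counts added to each sum, genes with at least 30 UMIs over both libraries were compared, and a 2-fold ratio was called. Intervals, exact at 95%, take UMIs as independent molecules. Members were thinned to 1000 UMIs in 20 draws. Versions were numpy 2.4.6, pandas 2.3.3, scipy 1.17.1 and matplotlib 3.10.9 under Python 3.11.15. The code for ratios and calls was run on simulated sums, drawn as independent Poisson counts with planted changes. Such sums hold no spread between cells, so they cannot show how the calls fare where UMIs lie in few cells.

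The members, gene lists and rules were chosen with earlier results of these data known. Named were 12 genes in each direction, those farthest from 1 in ratio among genes past 2-fold, with a UMI in at least 5 members of the library where they were higher. Gate genes, markers of other cells, ribosomal, mitochondrial, immunoglobulin, haemoglobin and sex-linked genes were left out, as were unnamed gene models and genes that moved 2-fold the same way in fibroblast-gated and epithelium-gated cells with 10 UMIs there. The 4 genes with the largest ratio per list, gate genes and markers could also be named, and further genes of the lists were named after their values were seen. Single genes that count toward a list or the 12 but have no value in the text are not reported here. Of 33083 genes, 6992 had no UMI in any barcode, among them 21 of 394 listed genes, such as B2m, Cd27, Cxcr6 and Xcl1.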

Additional observations from a re-analysis of the deposited data

How the results depend on the processing

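The ratio of shares among kept cells, 0.207, became 0.311 at a mitochondrial limit of 50% and 0.368 without one, which was chosen after seeing the data. The ratio among CD3 T cells stayed between 0.373 and 0.558 under its 12 alternatives. The counts of genes 2-fold higher and lower, 115 and 123, became 683 and 488 at a minimum of 10 UMIs and 13 and 21 at 100. With cells chosen by a CD8 UMI in place of the cytotoxic sum they became 61 and 189, and among members with a CD8 UMI 54 and 173. Of 1157 alternatives of gene levels, 1061 stayed within their counting interval and 96 moved. None of the 34 genes at least 2-fold apart changed sign under any of these, and 11 of all 61 genes followed did under at least 1. The genes followed included gate genes and the 12 named in each direction for the size of their ratio. Most alternatives reuse the same cells, so a kept sign is no independent support. Without the cells rich in granzymes, also chosen after seeing the data, Ccr9 went from -0.27 to 2.58 and Klre1 from 0.34 to 1.70. Those cells held most WT UMIs of both genes, so these shifts follow from leaving them out. The cause of the shifts under the other alternatives was not tested. The alternative that uses Trdc was not run, since T cell receptor chain genes are not among those of the files. No paired analysis was possible because each genotype has 1 library. Depth limits genes near the minimum: Top2a, at 14 and 16 UMIs, has an interval of 0.10 to 2.37 on the log2 scale.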
